A study of Mus musculus with 4 samples.

Results

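Transcripts of 9 genes of steroid hormone signalling were read from sorted stromal cells of the mouse prostate. The genes were chosen by name and role, as 4 nuclear receptors (Esr1, Pgr, Nr3c1 and Nr3c2), 2 enzymes that reduce testosterone to dihydrotestosterone (Srd5a1 and Srd5a2) and 3 hormone-responsive genes (Fkbp5, Zbtb16 and Tsc22d3). All 9 were found among 25750 named genes, and 31 deposited transcripts lay in them. A level is the summed FPKM of a gene's transcripts, a fragment count scaled to transcript length and sequencing depth. The cells came from adult C57BL/6 mice, with 2 libraries from the proximal prostatic ducts, near the urethra, and 2 from the distal ducts at the lobe tips. No group was treated or mutant. The cells had been sorted for Sca-1 on the surface and for the absence of CD24, CD49f and lineage markers, so stroma without Sca-1 was not measured; which lineage markers were used is not given in the sources used here. Libraries carry the numbers 2 and 3 in both regions. No label says what a shared number means, how many mice a library holds or whether libraries came from separate animals, so p-values here reflect library-to-library spread alone, which may be technical.

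Steroid hormones enter cells and bind nuclear receptors, which then act as transcription factors. In the prostate, dihydrotestosterone made from testosterone is the most potent androgen, and signals from the stroma to the epithelium depend on androgens during development. The glucocorticoid receptor is present in most cell types, and Fkbp5, Tsc22d3 and Zbtb16 are among the genes it is best known to induce. Progesterone and mineralocorticoid receptors can bind the same DNA element, an inverted repeat of the hexamer AGAACA, so these genes can respond to several hormones.

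Promoter windows are shown for Srd5a2, the most abundant of the 9 genes, and for Fkbp5 and Tsc22d3, whose transcripts begin at more than 1 place. Each window runs from 250 bases before to 50 bases after a RefSeq start (GRCm38.p6) and is given on the minus strand, the strand of these genes. Capitals mark the hexamer AGAACA and the GC box GGGCGG, each on either strand.
Srd5a2, chr17:74047811-74048110: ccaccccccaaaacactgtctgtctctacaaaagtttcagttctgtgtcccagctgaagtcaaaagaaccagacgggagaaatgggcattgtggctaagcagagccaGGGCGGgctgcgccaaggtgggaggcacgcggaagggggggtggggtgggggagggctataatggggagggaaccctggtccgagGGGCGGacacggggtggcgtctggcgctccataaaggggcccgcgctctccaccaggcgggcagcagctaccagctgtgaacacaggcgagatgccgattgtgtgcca
Fkbp5, chr17:28486100-28486399: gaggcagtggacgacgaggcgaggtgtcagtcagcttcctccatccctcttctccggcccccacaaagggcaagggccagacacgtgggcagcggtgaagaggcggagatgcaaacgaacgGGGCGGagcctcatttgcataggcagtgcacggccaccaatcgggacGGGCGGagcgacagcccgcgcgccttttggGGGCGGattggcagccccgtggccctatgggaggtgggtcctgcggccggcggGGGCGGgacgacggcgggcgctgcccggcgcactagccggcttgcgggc
Tsc22d3 long form, chrX:140600473-140600772: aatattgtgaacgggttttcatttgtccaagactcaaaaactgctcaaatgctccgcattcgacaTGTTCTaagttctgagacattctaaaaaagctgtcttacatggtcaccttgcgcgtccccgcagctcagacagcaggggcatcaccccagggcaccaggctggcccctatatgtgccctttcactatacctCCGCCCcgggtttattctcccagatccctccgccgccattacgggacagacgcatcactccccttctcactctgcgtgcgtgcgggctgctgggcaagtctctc
The GC box matched 4 times in the Fkbp5 window, 2 times in the Srd5a2 window and 1 time in the Tsc22d3 window, and 35.7% of all 32851 RefSeq windows of this length held at least 1. The hexamer matched once, in the Tsc22d3 window at position -185 from the start, and 19.0% of all windows held it. The full element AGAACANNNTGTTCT, searched on both strands, was in none of the 10 windows read for 7 of the 9 genes and in 3 of all 32851 windows. The estrogen response element GGTCANNNTGACC was likewise in none of the 10 windows, against 23 of all windows. These are matches of letters in short windows, not binding sites. No window read covered the start of uc009ula.2, the Tsc22d3 transcript with the highest FPKM in every library.

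Markers of stroma were present in every library. All 14 fibroblast and stromal markers reached 1 FPKM in each, led by gelsolin (Gsn), matrix Gla protein (Mgp) and decorin (Dcn). The 14 epithelial markers, led by the secretory genes Pbsn and Tgm4 and the keratin Krt19, summed to 164 and 759 FPKM in proximal 2 and 3, against 230 and 362 FPKM in distal 2 and 3. Of the genes sorted against, Cd24a stood at 8.06 and 54.6 FPKM in proximal 2 and 3, against 9.64 and 19.1 FPKM in distal 2 and 3, and Itga6 (CD49f) did not exceed 1.34 FPKM. The 10 smooth muscle and pericyte markers summed to 287 and 160 FPKM in proximal 2 and 3, against 333 and 220 FPKM in distal 2 and 3. The 6 adipocyte markers summed to 5.75 and 17.2 FPKM in proximal 2 and 3, against 0.383 and 2.44 FPKM in distal 2 and 3. The sums of the 8 endothelial, 9 leukocyte and 8 Schwann and neuronal markers did not exceed 11.05 FPKM in any library, and the leukocyte gene Cd3e was listed at 0 in all. The number of genes at 1 FPKM or more ran from 10154 to 11463 over the libraries.

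The 9 genes differed widely in level. Averaged over the 4 libraries, Srd5a2 stood at 197 FPKM, Tsc22d3 at 128, Nr3c1 at 30.7, Fkbp5 at 20.1, Esr1 at 8.71, Zbtb16 at 4.15, Srd5a1 at 1.14, Nr3c2 at 0.983 and Pgr at 0.731 FPKM. In this order only 1 pair of neighbours had ranges over the 4 libraries that did not overlap, Tsc22d3 at 45.3 to 226 FPKM and Nr3c1 at 22.3 to 41.2 FPKM. The mean of Srd5a2 lay at the 97.5th percentile of the 11271 genes tested, that of Tsc22d3 at the 95.8th, that of Esr1 at the 50.1st and that of Nr3c2 at the 1.92nd.

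**Figure D1:**
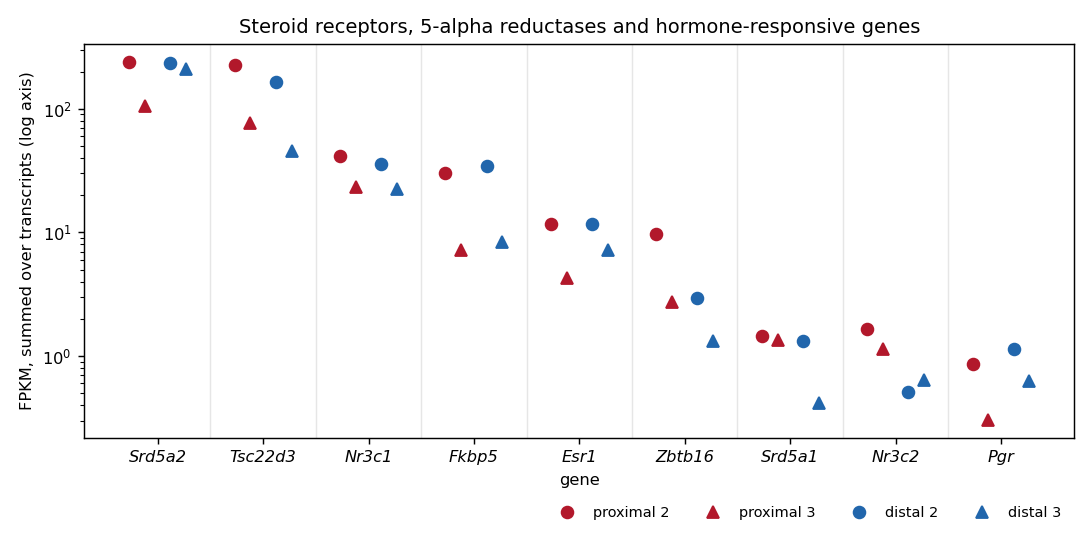
FPKM of each of the 9 genes in every library, on a log axis, with proximal libraries left of distal ones. For 8 of the 9 genes the library numbered 2 lies above the library numbered 3 in both regions, and Srd5a2 lies between 106 and 239 FPKM.

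The regions were compared with limma on log2(FPKM + 1), and none of the 8 genes tested passed. Pgr was too low to be tested. Of the 8 genes, 0 were called higher and 0 lower in proximal stroma at a Benjamini-Hochberg adjusted p under 0.05 (each adjusted p = 0.9999, limma), and 0 had an unadjusted p under 0.05. Over all 11271 genes tested the share called was 0% in each direction, while 254 genes (2.25%) were higher and 102 (0.905%) lower at an unadjusted p under 0.05. Both proximal values lay above both distal values for 2 of the 8 genes, Nr3c2 and Srd5a1, against 13% of all genes. Of these, Nr3c2 was tested only because it reached 1 FPKM in the proximal libraries, so its place in the count is tied to that minimum. Both proximal values lay below both distal values for 0 of 8, against 8.64%. The log2 difference, proximal minus distal, was above 0 for 5 of the 8 genes, against 60.4% of all genes. Its median was 0.27 over the 8 genes and 0.09 over all genes tested, where quantile normalization gave -0.03. Differences on the log2(FPKM + 1) scale understate those of low genes. With 2 libraries against 2, an exact two-sided permutation test of a single gene cannot give a p below 0.333.

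**Figure D2:**
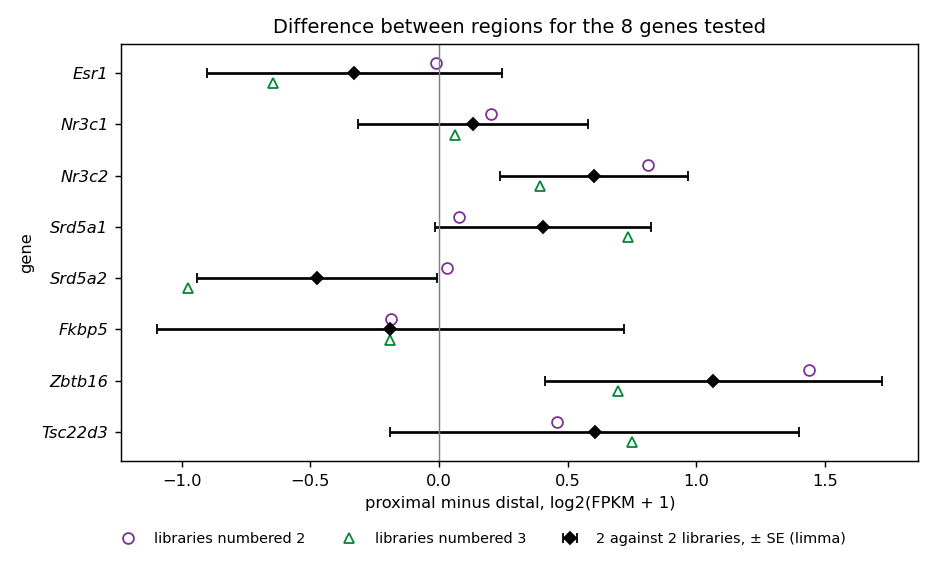
Log2 difference of log2(FPKM + 1), proximal minus distal, for the 8 genes tested, as black diamonds with bars of 1 SE from limma; open circles and triangles give the difference for the libraries numbered 2 and 3. Zbtb16 has the largest difference, 1.07, and Fkbp5 the longest bar, with an SE of 0.91 to either side.

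The glucocorticoid receptor Nr3c1 was the most abundant of the 4 receptors. It stood at 41.2 and 23.3 FPKM in proximal 2 and 3, against 35.7 and 22.3 FPKM in distal 2 and 3. The regions overlapped, and both libraries numbered 2 lay above both numbered 3. Between regions the log2 difference was 0.13 ± 0.45 (SE), with a 95% interval that reached up to 1.26, and without proximal 2 it was -0.27.

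By the deposited estimates, the full-length form supplied only part of the Nr3c1 sum. Transcript uc008esx.1, of 6329 bases and closest to an annotated protein-coding form, had 7.80 and 5.03 FPKM in proximal 2 and 3, against 6.47 and 4.84 FPKM in distal 2 and 3. Its share of the gene was 18.9% and 21.6% in proximal 2 and 3, against 18.1% and 21.7% in distal 2 and 3, so it was alike in both regions. The rest lay in uc008esz.1 (1832 bases), uc008etb.1 (1355 bases) and uc012bcg.1 (2287 bases). Each was also closest to a protein-coding form, though the match of uc008etb.1 was loose. Transcript uc012bcg.1 stood at 7.17 and 2.91 FPKM in proximal 2 and 3. In distal 2 and 3 it was listed at 0 and at 2.84 FPKM. A summed FPKM counts a short transcript and a full one alike, so by these estimates uc008esx.1 lay below the gene's sum. Reads are divided among overlapping transcripts by estimate, and a listed 0 can come from that division, which was not tested.

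Estrogen receptor alpha (Esr1) stood at 11.6 and 4.26 FPKM in proximal 2 and 3, against 11.7 and 7.24 FPKM in distal 2 and 3. The libraries numbered 2 were alike in both regions, and proximal 3 was the lowest of all. The log2 difference was -0.33 ± 0.57 (SE), with a 95% interval of -1.79 to 1.13, and without proximal 3 it was 0.30. Of its 10 transcripts, 8 were listed at 0 in all libraries, among them all that begin at the second RefSeq start. Transcript uc007egw.2 (6358 bases) held 76.8% and 84.1% of Esr1 in proximal 2 and 3, against 74.3% and 79.5% in distal 2 and 3, and uc007egv.2 (6248 bases) held the remainder. Estrogen receptor beta (Esr2) stood at 0.060 and 0.111 FPKM in proximal 2 and 3, against 0 and 0.158 FPKM in distal 2 and 3.

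The progesterone receptor Pgr was close to the lower limit of measurement. Its sum was 0.858 and 0.304 FPKM in proximal 2 and 3, against 1.13 and 0.628 FPKM in distal 2 and 3. By the deposited estimates, the sum mixed transcripts with different patterns. The coding transcript uc009odo.1 (6889 bases) stood at 0.285 and 0.178 FPKM in proximal 2 and 3, against 0.584 and 0.495 FPKM in distal 2 and 3. Both proximal values lay below both distal values, and the deposited bounds of the higher proximal value (0.191 to 0.378 FPKM) lay below those of the lower distal value (0.394 to 0.596 FPKM). Such bounds cover the estimate within a library, not the spread between libraries, and the difference was not tested. Transcript uc009odn.1 (4483 bases), closest to a retained-intron form, had 0.574 and 0.126 FPKM in proximal 2 and 3, against 0.548 and 0.133 FPKM in distal 2 and 3. It was high in both libraries numbered 2 and alike in both regions. The Pgr transcripts begin at the same place and reads are divided between them by estimate. The part of that division in their patterns was not tested. The share of all transcripts whose regions do not overlap was not counted.

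The mineralocorticoid receptor Nr3c2, which binds aldosterone and also glucocorticoids, was low in every library. Its single transcript stood at 1.65 and 1.15 FPKM in proximal 2 and 3, against 0.506 and 0.634 FPKM in distal 2 and 3. The regions did not overlap, and the lower deposited bound in proximal 3, 0.944 FPKM, exceeded the upper bound in distal 3, 0.774 FPKM. Its log2 difference was 0.60 ± 0.37 (SE), 0.81 for number 2 and 0.39 for number 3 taken alone. At this low level it depended on the scale, at 1.14 with a pseudocount of 0.1 and 0.35 after quantile normalization. Nr3c2 reached the minimum of 1 FPKM in the proximal libraries alone, so it was tested because it was high there. Nr3c1 stood above Nr3c2 by 25.1-fold and 20.3-fold in proximal 2 and 3, against 70.6-fold and 35.2-fold in distal 2 and 3.

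The membrane-associated progesterone receptor components, read as neighbours in the pathway, were also present, Pgrmc1 at a mean of 196 ± 41.0 FPKM in proximal libraries, against 159 ± 23.5 FPKM in distal libraries, and Pgrmc2 at 17.0 ± 0.579 FPKM in proximal libraries, against 13.0 ± 1.37 FPKM in distal libraries (SD, n = 2 each). Of the 9 receptor genes listed, 6 were tested, 0 were called in either direction, and the median log2 difference was 0.21, or 0.35 without proximal 3 and 0.08 after median-of-ratios scaling.

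Srd5a2, the 5-alpha reductase whose loss in people impairs prostate development, was by far the higher of the isozyme pair. It stood at 239 and 106 FPKM in proximal 2 and 3, against 234 and 209 FPKM in distal 2 and 3. Proximal 3 stood apart, with deposited bounds of 101 to 110 FPKM, and the other 3 libraries were alike. The log2 difference was -0.47 ± 0.47 (SE), with a 95% interval of -1.65 to 0.71. Number 2 alone gave 0.03 and number 3 alone -0.98, so its direction rested on proximal 3. Without proximal 3 it was 0.11. Proximal 3 also had the largest sum of epithelial markers, 759 FPKM, the highest Cd24a and the lowest Esr1. The part of epithelial RNA in these values was not tested. In bulk samples, fewer cells of a type and less RNA per cell cannot be told apart. Srd5a2 is listed as a single transcript of 854 bases, uc008dnt.1, shorter than the annotated coding form, which runs farther at the 3' end.

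Srd5a1, the isozyme best known from liver and skin, stood at 1.45 and 1.36 FPKM in proximal 2 and 3, against 1.32 and 0.416 FPKM in distal 2 and 3. The regions did not overlap, but 3 of the 4 libraries were nearly alike and distal 3 was low. Between regions the log2 difference was 0.41 ± 0.42 (SE), 0.08 for number 2 and 0.74 for number 3 taken alone. It was 0.81 with a pseudocount of 0.1 and 0.20 after quantile normalization. The full-length transcript uc007rck.1 (2665 bases) alone did overlap, at 0.739 and 1.36 FPKM in proximal 2 and 3, against 0.824 and 0.416 FPKM in distal 2 and 3. The short uc007rcl.1 (854 bases), closest to a noncoding form, was listed at 0 in both libraries numbered 3. Reads are divided between these overlapping transcripts by estimate, and the part of that division in their values was not tested. Srd5a2 stood above Srd5a1 by 165-fold and 77.8-fold in proximal 2 and 3, against 177-fold and 502-fold in distal 2 and 3.

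**Figure D3:**
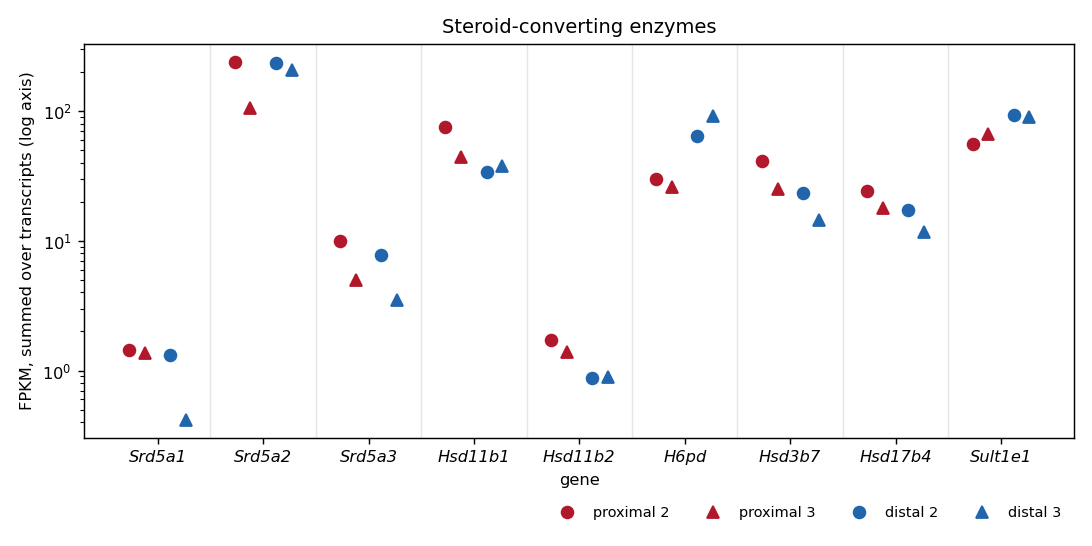
FPKM of steroid-converting enzymes in every library, on a log axis, with proximal libraries left of distal ones. Srd5a2 lies at 106 FPKM or above and Srd5a1 at 1.45 FPKM or below in all libraries, and both proximal values of H6pd lie below both distal values.

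Of 34 listed enzymes and carriers of steroid conversion, 15 were tested and 0 were called in either direction. Genes of synthesis from cholesterol were near or at 0, with Cyp11a1 listed at 0 in all libraries and Cyp17a1 and the aromatase Cyp19a1 at most 0.474 FPKM. The regions did not overlap for 10 of the 15, 7 higher and 3 lower in proximal stroma, against 21.6% of all genes tested in either direction, and the median log2 difference was 0.25, or 0.05 without distal 3 and 0.43 without distal 2. Of the 7 higher, Hsd11b2 reached the 1 FPKM minimum in the proximal libraries alone. The list was chosen with earlier results of these data known, so its counts are descriptive. Hsd11b1, which regenerates active glucocorticoid, stood at 75.6 and 44.5 FPKM in proximal 2 and 3, against 34.1 and 37.8 FPKM in distal 2 and 3. Its opposite, the inactivating Hsd11b2, was 44.2-fold and 32.3-fold lower in proximal 2 and 3, against 39.0-fold and 42.7-fold lower in distal 2 and 3. H6pd, which makes the NADPH that Hsd11b1 uses, lay the other way, at 30.2 and 25.9 FPKM in proximal 2 and 3, against 64.7 and 91.8 FPKM in distal 2 and 3. H6pd had the largest difference of the list, -1.43 ± 0.34 (SE; adjusted p = 0.908, limma). Hsd3b7, an enzyme of oxysterol and bile acid metabolism, stood at 41.3 and 25.2 FPKM in proximal 2 and 3, against 23.2 and 14.4 FPKM in distal 2 and 3. The estrogen sulfotransferase Sult1e1 stood at 56.2 and 67.1 FPKM in proximal 2 and 3, against 92.8 and 89.3 FPKM in distal 2 and 3. Tspo, a mitochondrial outer membrane protein, was the most abundant after Srd5a2, at 163 ± 6.68 FPKM in proximal libraries, against 137 ± 11.2 FPKM in distal libraries (SD, n = 2 each).

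Fkbp5, a co-chaperone that lowers the hormone affinity of the glucocorticoid receptor, followed the library number and not the region. It stood at 30.2 and 7.22 FPKM in proximal 2 and 3, against 34.5 and 8.38 FPKM in distal 2 and 3. The library numbered 2 exceeded the one numbered 3 by 4.19-fold in proximal and by 4.12-fold in distal stroma. The log2 difference between regions was -0.19 ± 0.91 (SE) over all 4 libraries and also -0.19 within each number. Leaving out proximal 2 gave -1.15 and leaving out proximal 3 gave 0.77. The transcript that begins at the promoter shown above, uc008bqz.3, held 84.4% and 87.8% of Fkbp5 in proximal 2 and 3, against 100% and 88.9% in distal 2 and 3. The upstream start, that of uc008bra.3, gave 4.73 and 0.878 FPKM in proximal 2 and 3, against 0 and 0.934 FPKM in distal 2 and 3. The division of reads between these overlapping transcripts is an estimate, and whether it gave the listed 0 was not tested.

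Tsc22d3, which encodes the leucine zipper protein GILZ, was the second most abundant of the 9 genes and also varied with the library number. It stood at 226 and 76.9 FPKM in proximal 2 and 3, against 164 and 45.3 FPKM in distal 2 and 3. Within each number the proximal library was the higher, by a log2 difference of 0.46 for number 2 and 0.75 for number 3. Over all 4 libraries it was 0.60 ± 0.80 (SE), with a 95% interval of -1.41 to 2.62, and without distal 3 it was -0.31. The library numbered 2 exceeded the one numbered 3 by 2.94-fold in proximal and 3.63-fold in distal stroma.

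Nearly all Tsc22d3 signal came from the short form. Transcript uc009ula.2 (1973 bases) stood at 226 and 68.6 FPKM in proximal 2 and 3, against 164 and 40.1 FPKM in distal 2 and 3. The long form uc009ulb.1 (2148 bases), which begins at the long-form promoter shown above, was listed at 0 and 8.22 FPKM in proximal 2 and 3, against 0 and 5.14 FPKM in distal 2 and 3. The deposited bounds were 7.21 to 9.23 FPKM in proximal 3 and 4.42 to 5.87 FPKM in distal 3. The upper bounds where it was listed at 0 were 0.0367 FPKM in proximal 2 and 0.0336 FPKM in distal 2. The long form thus appeared in both libraries numbered 3 and ran opposite to the gene's total. An exact 0 beside an abundant form can be a failure of the estimate to divide reads between overlapping forms, which was not tested.

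**Figure D4:**
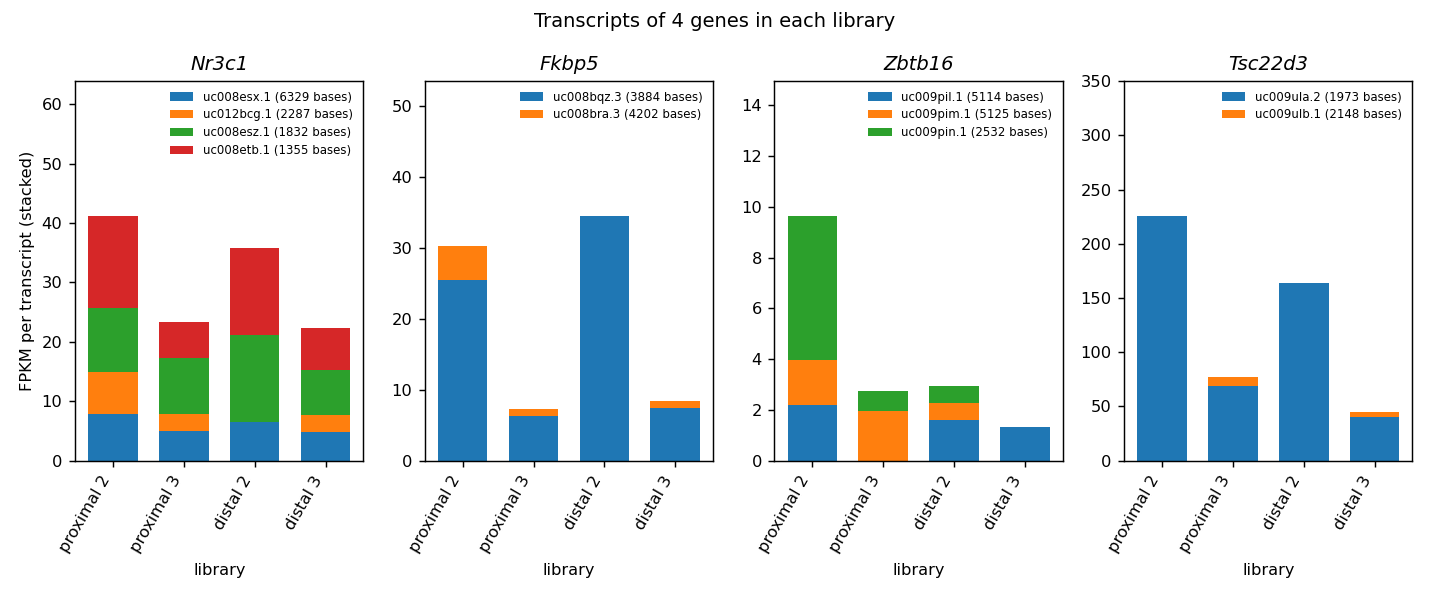
FPKM of single transcripts of Nr3c1, Fkbp5, Zbtb16 and Tsc22d3, stacked in 1 bar per library, with proximal libraries left of distal ones. The long Tsc22d3 transcript is listed at 0 in both libraries numbered 2 and at 8.22 and 5.14 FPKM in proximal 3 and distal 3.

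Zbtb16, which encodes the zinc finger transcription factor PLZF, had the largest difference of the 8 genes tested. It stood at 9.65 and 2.73 FPKM in proximal 2 and 3, against 2.93 and 1.31 FPKM in distal 2 and 3. The regions overlapped by a small margin, between proximal 3 and distal 2. Its log2 difference was 1.07 ± 0.66 (SE), 1.44 for number 2 and 0.69 for number 3 taken alone. Without proximal 2 it was 0.31 and without proximal 3 it was 1.82, so its size depended on both. The library numbered 2 exceeded the one numbered 3 by 3.53-fold in proximal and 2.24-fold in distal stroma. The high value in proximal 2 lay mostly in uc009pin.1 (2532 bases), which had 5.67 and 0.768 FPKM in proximal 2 and 3, against 0.652 and 0 FPKM in distal 2 and 3. The longer uc009pil.1 (5114 bases) and uc009pim.1 (5125 bases), which differ in where they begin, were each listed at 0 in 1 of the libraries numbered 3. Reads are divided among such overlapping transcripts by estimate, and the part of that division in these values was not tested.

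The library number, not the region, separated the values of most of the 9 genes. Both libraries numbered 2 lay above both numbered 3 for 7 of the 9 genes, all but Nr3c2 and Srd5a1. Among the 8 tested they did so for 6, against 50.4% of all genes tested, and the libraries numbered 3 lay above for 0 of 8, against 20.2%. Over all genes, values in the libraries numbered 3 were lower by a median log2 difference of -0.33. Fkbp5, Zbtb16 and Tsc22d3 had the widest ranges of log2(FPKM + 1) over the 4 libraries. Genes with the pattern most like theirs were taken from those with a mean of at least 5 FPKM, by the root mean square distance of centred log2(FPKM + 1) values over the 4 libraries. For Tsc22d3 they were Dnal4 (0.011), Uqcc3 (0.026) and Sdhaf4 (0.038), and 119 of 7428 genes lay within 0.2. For Fkbp5 they were Hdgf (0.024), Agap1 (0.054) and 2510039O18Rik (0.064), with 83 of 7428 genes within 0.2. For Zbtb16 they were Apela (0.072), Mir99ahg (0.110) and Hyi (0.115), with 17 of 7429 genes within 0.2. The first pair of patterns was thus shared by many genes.

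Genes around the receptors were read in lists, and 0 genes of any list were called in either direction with region as the only term. The chaperone list includes Fkbp5, and the glucocorticoid and androgen lists each include Fkbp5, Zbtb16 and Tsc22d3. Some genes are in more than 1 list. All lists were chosen with earlier results of these data known, so their counts beside the shares of all genes are descriptive. The 17 chaperones and co-chaperones, all tested, had a median log2 difference of 0.15, or 0.31 without proximal 2 and 0.03 after median-of-ratios scaling. In proximal stroma 5 of the 17 were higher without overlap, against 13% of all genes, and 0 were lower, against 8.64%. Dnajb1, a heat-shock co-chaperone, stood at 263 and 355 FPKM in proximal 2 and 3, against 190 and 165 FPKM in distal 2 and 3. Fkbp4, which promotes receptor activity where Fkbp5 restrains it, averaged 51.4 ± 4.80 FPKM in proximal libraries, against 39.6 ± 6.31 FPKM in distal libraries (SD, n = 2 each). Stub1, a chaperone-bound ubiquitin ligase, averaged 53.5 ± 23.4 FPKM in proximal libraries, against 41.6 ± 20.0 FPKM in distal libraries (SD, n = 2 each). The most abundant, Hspa8 and Hsp90ab1, had log2 differences of 0.24 and 0.02.

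Coregulators and pioneer factors, 24 of 27 tested, had a median log2 difference of 0.00, which ran from -0.17 without proximal 2 to 0.34 without proximal 3. In proximal stroma 2 were higher and 3 lower without overlap, 20.8% of the list against 21.6% of all genes. Nr2f1, an orphan nuclear receptor, stood at 8.22 and 4.74 FPKM in proximal 2 and 3, against 5.59 and 1.57 FPKM in distal 2 and 3. Foxa1, an epithelial pioneer factor and among the 2 counted higher, did not exceed 1.83 FPKM in any library. It was tested only because it reached 1 FPKM in the proximal libraries. Nrip1, a corepressor, stood at 16.2 and 23.1 FPKM in proximal 2 and 3, against 17.6 and 43.9 FPKM in distal 2 and 3. The abundant Gata2 averaged 68.5 ± 0.240 FPKM in proximal libraries, against 51.3 ± 10.2 FPKM in distal libraries, and Prmt1 averaged 54.4 ± 7.42 FPKM in proximal libraries, against 55.7 ± 4.33 FPKM in distal libraries (SD, n = 2 each).

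Genes known to be induced by glucocorticoids did not share a direction. Of 34 listed, 32 were tested, 4 were higher and 9 lower in proximal stroma without overlap, against 13% and 8.64% of all genes, and the median log2 difference was 0.23, or -0.30 without distal 3. Cyp2f2, a cytochrome known from lung club cells, stood at 7.69 and 19.0 FPKM in proximal 2 and 3, against 0.101 and 0.054 FPKM in distal 2 and 3. Its log2 difference was 3.61 ± 0.54 (SE; adjusted p = 0.505, limma), and it was tested only because it reached 1 FPKM in the proximal libraries. Bcl6, a transcriptional repressor, stood at 19.7 and 9.90 FPKM in proximal 2 and 3, against 37.0 and 28.6 FPKM in distal 2 and 3. The metallothionein Mt1 stood at 4145 and 10144 FPKM in proximal 2 and 3, against 11675 and 10795 FPKM in distal 2 and 3. Mt2 shared that shape, low in proximal 2 alone, with a log2 difference of -0.73 ± 0.56 (SE). Both metallothioneins thus ran opposite to Fkbp5 and Tsc22d3 in the proximal pair of libraries. Of the 32 tested, 20 had number 2 above number 3 in both regions, as Fkbp5 and Tsc22d3 did. That count was not made over all genes.

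Androgen-responsive genes, 28 of 31 tested, had 4 higher and 3 lower in proximal stroma without overlap, 25.0% of the list against 21.6% of all genes, and a median log2 difference of 0.08, or -0.09 without proximal 3. Fgf7, a stromal growth factor for epithelium, stood at 29.2 and 50.2 FPKM in proximal 2 and 3, against 10.8 and 11.5 FPKM in distal 2 and 3. Its log2 difference was 1.69 ± 0.40 (SE; adjusted p = 0.904, limma). Msmb, a secretory product of prostate epithelium, had 1.76 and 3.34 FPKM in proximal 2 and 3 and was listed at 0 in both distal libraries, so it too was tested through the proximal libraries alone. Steap4, a metalloreductase, stood at 16.7 and 39.1 FPKM in proximal 2 and 3, against 41.3 and 77.5 FPKM in distal 2 and 3. The most abundant of the list, Igfbp3 and Cdkn1a, varied more between numbers than between regions, Igfbp3 at 410 and 42.7 FPKM in proximal 2 and 3, against 486 and 92.2 FPKM in distal 2 and 3.

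Of 30 estrogen- and progesterone-responsive genes listed, 19 were tested. Of these, 3 were higher and 6 lower in proximal stroma without overlap, against 13% and 8.64% of all genes. This list was chosen with earlier results of these data known, so the counts describe it and test nothing. The median log2 difference was -0.11, or 0.20 without distal 2. The chemokine Cxcl12 stood at 577 and 748 FPKM in proximal 2 and 3, against 117 and 70.5 FPKM in distal 2 and 3, a log2 difference of 2.84 ± 0.38 (SE; adjusted p = 0.497, limma). Sprr2a1, a cornified envelope protein with near-identical copies among which reads can be split, stood at 38.6 and 73.8 FPKM in proximal 2 and 3, against 1.21 and 0.512 FPKM in distal 2 and 3. Sprr2a1 had an adjusted p of 0.198 (limma), the lowest reached, which 8 other genes shared. Susd3 stood at 15.5 and 8.41 FPKM in proximal 2 and 3, against 1.72 and 1.08 FPKM in distal 2 and 3. The opioid precursor Penk stood at 990 and 2346 FPKM in proximal 2 and 3, against 3310 and 4830 FPKM in distal 2 and 3. The epithelial marker sum was also higher in proximal 3 than in any other library, and its part in Sprr2a1, Msmb and Cyp2f2 was not tested.

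Early stress genes, which cell isolation is known to induce, included very abundant genes. All 18 were tested, 7 were higher and 1 lower in proximal stroma without overlap, against 13% and 8.64% of all genes, and the median log2 difference was 0.37, or -0.11 without distal 3. Fos stood at 3311 and 1399 FPKM in proximal 2 and 3, against 2084 and 519 FPKM in distal 2 and 3. Hspb1 stood at 297 and 721 FPKM in proximal 2 and 3, against 179 and 207 FPKM in distal 2 and 3. Fosb averaged 422 ± 52.0 FPKM in proximal libraries, against 218 ± 23.8 FPKM in distal libraries (SD, n = 2 each). Hspa1b and Hspa1a, near-identical heat-shock genes whose reads can be split, averaged 4032 ± 788 FPKM and 3592 ± 824 FPKM in proximal stroma, against 2381 ± 839 FPKM and 2073 ± 847 FPKM in the distal libraries (SD, n = 2 each). These genes did not share an order over the libraries, as Fos was highest in proximal 2 and Fosb and Hspb1 in proximal 3. The part of isolation stress in Tsc22d3, Fkbp5 and Zbtb16 was not tested.

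**Figure D5:**
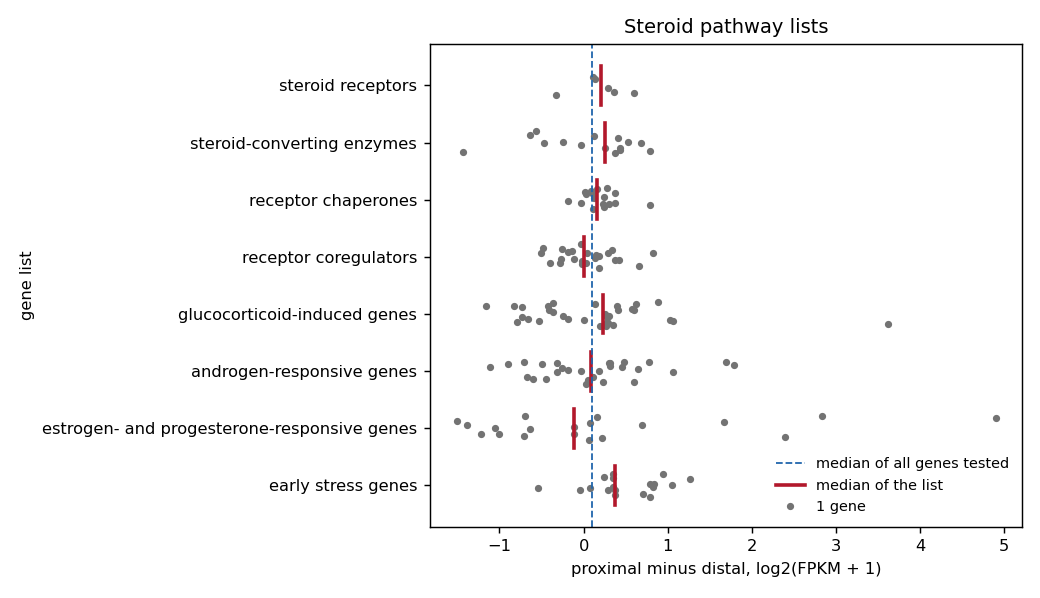
Log2 differences of log2(FPKM + 1), proximal minus distal, of every tested gene in each of the 8 lists (points), with the list's median (red bar) and the median of all genes tested (dashed line). Medians run from -0.11 for estrogen- and progesterone-responsive genes to 0.37 for early stress genes, and no point is a called gene.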

How the data were processed

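Sorted stromal cells of 4 libraries were measured by RNA sequencing. RNA was made into cDNA with a low-input SMART kit using random and oligo(dT) priming, and a DNA kit was used for the libraries, per the labels' protocols; a strand-specific step is not described, so overlapping antisense reads cannot be separated. The submitters' processing notes name bcl2fastq 1.8.3, TopHat2 0.6 and Cufflinks 0.0.6 (the last pair look like wrapper versions) and mm10. The authors deposited FPKM values with lower and upper bounds for each of 63241 UCSC transcripts, and a coverage value per transcript. Read counts are not used here, so depth in reads is unknown; the deposited coverage per FPKM had a median of 5.22 to 6.34 per library. Deposited bounds lay 13.8% to 14.8% of the value on either side at 1 to 10 FPKM and 6.40% to 7.14% at 10 to 100 FPKM.

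By position on the same assembly, GENCODE M21 gave names to the transcripts: 55637 (88.0%, with 96.3% of the summed FPKM) received a gene name, and all 31 transcripts of the 9 genes lay inside the RefSeq gene of that name. FPKM values were summed per gene. Genes with a failed or capped estimate (7 that met the minimum, none of the 9) were left out. Genes with at least 1 FPKM in at least 2 libraries (11271) were tested with limma 3.58.1 in R 4.3.3 on log2(FPKM + 1), with region as the only term, a mean-variance trend and Benjamini-Hochberg adjustment over all genes tested. The fit was run on simulated data in which all libraries varied independently. Real libraries of the same number deviated together, so that run does not show how many real differences the fit would call. Other pseudocounts, minimums and scalings, a block for the library number, and leaving out each library were tried as alternatives.

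The 9 genes and all lists were chosen with earlier results of these data known. Named in the text were all 9 genes; per list, the 3 tested genes with the largest absolute log2 difference and the 2 most abundant with a mean of at least 5 FPKM; the 3 most abundant of the leading marker list and of the epithelial list; and pattern neighbours. Esr2 and single enzymes were added for their role, and all list genes called by the block fit were named. Some genes of the lists are not reported here. Sequences are from RefSeq (GRCm38.p6), with windows read for all but Nr3c1 and Zbtb16.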

Additional observations from a re-analysis of the deposited data

How the results depend on the processing

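No setting called any of the 8 tested genes. Over 14 alternatives, 98 of 107 recomputed values of these genes kept their direction and their side of the threshold. The block, the fit without a mean trend and the other minimums cannot change a gene's difference, so the direction of those values was fixed in advance. The 9 values that changed sign were 8 with a library left out and 1 more, of Nr3c1. That value was -0.059 with the highest transcript only in place of the sum. With a library left out, the log2 difference of Esr1 ran from -0.96 to 0.30, of Nr3c1 from -0.27 to 0.53, of Nr3c2 from 0.45 to 0.75, of Srd5a1 from 0.05 to 0.76, of Srd5a2 from -1.06 to 0.11, of Fkbp5 from -1.15 to 0.77, of Zbtb16 from 0.31 to 1.82 and of Tsc22d3 from -0.31 to 1.52. The lowest value came without proximal 2, except for Srd5a1 and Tsc22d3 (without distal 3), and the highest without proximal 3, except for the same pair (without distal 2). The lone library of a region was then assumed to vary like the other group. Over all genes, these fits called 0 to 36 genes higher (36 without distal 2, 21 without distal 3) and 0 to 5 lower (5 without distal 3), and 0 members. Same-numbered libraries deviated together from their region's mean (correlation 0.815), but no label says what the number means and there are only 2 pairs. With the number as a replicate block, 314 of the 11271 genes tested were called higher and 151 lower. Among them were 0 of the 8 genes, where the lowest adjusted p (limma) was 0.0637, for Zbtb16. The block fit called 13 genes of the lists. Sprr2a1, Cxcl12, Susd3, Wnt4, Cyp2f2, Fgf7 and Msmb were higher, and C3, Il13ra2, Rerg, H6pd, Bcl6 and Steap4 lower. By list, it called 0 higher and 1 lower of 15 steroid-converting enzymes, and 1 and 1 of 32 glucocorticoid-induced genes. It called 2 and 1 of 28 androgen-responsive genes, and 4 and 3 of 19 estrogen- and progesterone-responsive genes. In the other lists it called 0. Of the 13, Cyp2f2 and Msmb were tested only because they reached 1 FPKM in the proximal libraries. The lists were chosen with earlier results of these data known. Quantile and median-of-ratios scaling moved the median over all genes to -0.03 and -0.01, against 0.09 as reported.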

Other observations

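Some genes of receptor action differed widely between library numbers and little between regions; the examples here were chosen after their values were seen. Ncor1, a corepressor of nuclear receptors, stood at 91.7 and 10.7 FPKM in proximal 2 and 3, against 90.1 and 16.2 FPKM in distal 2 and 3. The coactivator Ncoa1 stood at 28.9 and 3.69 FPKM in proximal 2 and 3, against 21.2 and 3.22 FPKM in distal 2 and 3. Carm1, an arginine methyltransferase that acts with such coactivators, stood at 27.1 and 2.83 FPKM in proximal 2 and 3, against 26.0 and 3.12 FPKM in distal 2 and 3. Cebpb, a transcription factor that works beside the glucocorticoid receptor, stood at 1041 and 31.7 FPKM in proximal 2 and 3, against 1323 and 42.0 FPKM in distal 2 and 3. For Cebpb that is 32.8-fold higher in number 2 than in number 3 in proximal stroma and 31.5-fold higher in distal stroma. The same ratio in proximal and distal stroma was 4.19 and 4.12 for Fkbp5. What the number stands for was not tested.

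A further steroid-converting enzyme, Hsd17b10, a mitochondrial dehydrogenase, stood at 47.9 and 39.9 FPKM in proximal 2 and 3, against 36.4 and 28.2 FPKM in distal 2 and 3. It was not called.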
